A study of Mus musculus with 15 samples.

Results

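Chemokines and interleukins are small secreted proteins by which cells call in, activate or restrain immune cells. CC and CXC chemokines, named for the spacing of their first cysteines, act on G protein-coupled receptors and steer cell migration. Interleukins act on several receptor families, many of which signal through JAK kinases and STAT transcription factors, and many genes of both groups are switched on by NF-kB during inflammation. Most are silent outside immune, stromal or epithelial cells, and in wild-type cells the promoters of many tissue-restricted genes carry DNA methylation.

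The genes described here were chosen by name: every probe whose gene name starts with Ccl, Cxcl or Il followed by a number, with receptors and receptor-like genes left out. The rule found 72 of 27703 gene names on the expression array: 20 CC chemokines, 13 CXC chemokines and 39 interleukin-named genes. They had 90 of its 41174 probes. On the promoter arrays 50 of them had 268 of 80567 probes. The names are those of the array design, so Ccl27, Cxcl4, Cxcl7, Il17, Il17e and Il28 are today Ccl27a, Pf4, Ppbp, Il17a, Il25 and Ifnl3. The rule also takes in a pair of genes that are no ligands, Il4i1, an amino acid oxidase, and Il18bp, a secreted protein that binds Il18.

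TKO is a mouse embryonic stem (ES) cell line in which Dnmt1, Dnmt3a and Dnmt3b, the enzymes that methylate cytosine, are knocked out. J1 is the wild-type ES line it was set against. Both grew with LIF and serum and were kept off feeder cells for 2 passages before harvest. RNA of TKO and J1 was hybridised together on 3 expression arrays, deposited as 1 sample. DNA pulled down with an antibody against methylated cytosine (MeDIP, from 2 ug of genomic DNA) was hybridised together on promoter arrays in a pair of designs, part 1 and part 2, with 7 arrays each. The series text says that the 7 replicates used different passages, while the labels give J1 of part 1 the same passage on replicates 1 and 3. Each array holds both lines and gives 1 log2 ratio of TKO to J1. The expression arrays used the same cultures, with no word on which. A single line stands for each genotype, so p-values measure the spread between arrays and not between lines. The number of arrays limits the precision.

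By the labels TKO was in Cy5 and J1 in Cy3 on all 14 MeDIP arrays, with no swap, so dye and line cannot be told apart there. Their ratios carry the labels of the channels, and neither side is read as the more methylated line. For the expression arrays, J1 in Cy5 on replicates 1 and 3 and in Cy3 on replicate 2 is the likely order from the labels. In that direction the log2(TKO/J1) ratio was -1.07 ± 0.25 for Dnmt1 (SD, n = 2), -2.36 ± 0.18 for Dnmt3a (n = 2) and -2.50 ± 0.19 for Dnmt3b (n = 3). An uneven spot on replicate 3 was left out for the genes with n = 2. On that array 8386 spots were uneven, control spots aside. Between 38.6% and 66.8% of expression probes and between 88.2% and 99.7% of promoter probes were well above background, the scanner's test of a spot against its surround. Turned expression arrays correlated at 0.79 to 0.82 across the genes that entered the test, each read by its brightest probe. MeDIP arrays of a part correlated at 0.52 to 0.88 across promoter regions, each a mean over probes.

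Chemokine and interleukin RNAs were mostly at or near background. Of the 72 genes, 35 were below background on every array in both TKO and J1, among them the inflammatory cytokines Il6, Il1a and Il1b, the T cell cytokines Il4, Il5, Il9 and Il22, and the chemokines Cxcl2, Cxcl9 and Ccl4. A further 21 were above background on 1 or 2 arrays of a line. Only 16 genes (22.2%) were above background on all 3 arrays in TKO or in J1 and entered the test, against 43.3% of all genes on the array. By family, 5 of 20 CC chemokines, 4 of 13 CXC chemokines and 7 of 39 interleukin-named genes did so. No probe of the 72 genes held a saturated spot.

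Of the 16 tested genes Ccl2 had the highest log2 ratio in TKO cells over J1. It encodes the chemokine that draws monocytes through the receptor Ccr2. Its processed signal was 2535, 2412 and 4539 intensity units in TKO, against 759, 508 and 1403 in J1. TKO was above J1 on every array, and the lines did not overlap. The log2(TKO/J1) ratio was 1.24, 1.36 and 1.28 on the 3 arrays, a mean of 1.29 ± 0.06 (SD, n = 3) or 2.45-fold, with a limma Benjamini-Hochberg adjusted p of 7.43e-06 over 12000 genes. Ccl2 was well above background in TKO on 3 arrays and in J1 on 2. Of the 72 genes it alone passed both the adjusted p of 0.05 and a 2-fold change upwards, which 1.62% of all tested genes did.

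Cxcl1, a chemokine that attracts neutrophils through Cxcr2, rose less. Its signal was 315, 451 and 804 in TKO, against 195, 120 and 419 in J1, again with TKO above J1 on each array but with overlapping ranges. The log2 ratio was 0.38 ± 0.13 (SD, n = 3), with a limma adjusted p of 0.0093.

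Cxcl12, the ligand of Cxcr4 that holds stem and progenitor cells in their niches, fell. Its brightest probe read 91.3, 94.3 and 257 in TKO, against 406, 266 and 639 in J1. J1 was well above background on all 3 arrays and TKO on 1, so on replicates 1 and 2 the ratio is set against a TKO signal that was not well above background. The log2 ratio was -0.56, -0.28 and -0.46, a mean of -0.43 ± 0.14 (SD, n = 3), with a limma adjusted p of 0.0048. A dimmer probe of Cxcl12, above background on 1 array in TKO and on none in J1, gave 0.06 ± 0.02.

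The other 13 tested genes did not pass the adjusted p. So 2 of 16 genes (12.5%) were called higher, against 16.9% of all tested genes, and 1 of 16 (6.25%) lower, against 15.8%. With 16 genes tested, 1 gene makes 6.25%, and the difference of these shares from those of all genes was not tested. With median centring in place of loess, 378 genes were higher and 738 lower over the whole array, against 2030 and 1900 with loess. The median log2 ratio was -0.01 over the 16 genes and -0.01 over all tested genes.

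Among the chemokines that were not called, Ccl25, which guides T cells to thymus and gut, was at 0.19 ± 0.25 on its brightest probe, with 1 array below 0. A dimmer probe of Ccl25, also above background on every array, gave 0.14 ± 0.07 with all 3 arrays above 0. Ccl27, a skin chemokine, was at 0.14 ± 0.05 (adjusted p = 0.22, limma) and above 0 on all 3 arrays. Cxcl14, made by many epithelia, was at 0.07 ± 0.09, and Ccl19, a Ccr7 ligand of lymphoid tissue, at 0.03 ± 0.15 on its brightest probe. Another probe of Ccl19, also above background on every array, gave 0.26 ± 0.07 with all 3 arrays above 0. Ccl5, made by T cells and infected cells, was at -0.01 ± 0.05, with the arrays on both sides of 0. Cxcl16, which exists in a membrane-bound form, was at -0.04 ± 0.11 on its brightest probe and at 0.28 ± 0.16 on another probe that was also above background on every array, so the probes of Cxcl16 did not give the same sign.

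Among the interleukin-named genes, Il17b, a member of the Il17 family, came nearest to a call, at -0.23 ± 0.08 (SD, n = 3) with a limma adjusted p of 0.054 and all 3 arrays below 0. Il23a, the specific subunit of the Il23 cytokine, was at -0.18 ± 0.26, set mostly by replicate 3 at -0.47 beside -0.03 on each of the others. Il11, a cytokine that signals through gp130 as LIF does, was at -0.14 ± 0.11. Il7, a growth factor of lymphocytes, was at -0.05 ± 0.12, Il24, of the Il10 family, at -0.03 ± 0.08 and Il27, a subunit of the Il27 cytokine, at -0.01 ± 0.14. Il18bp was at 0.06 ± 0.10.

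**Figure D1:**
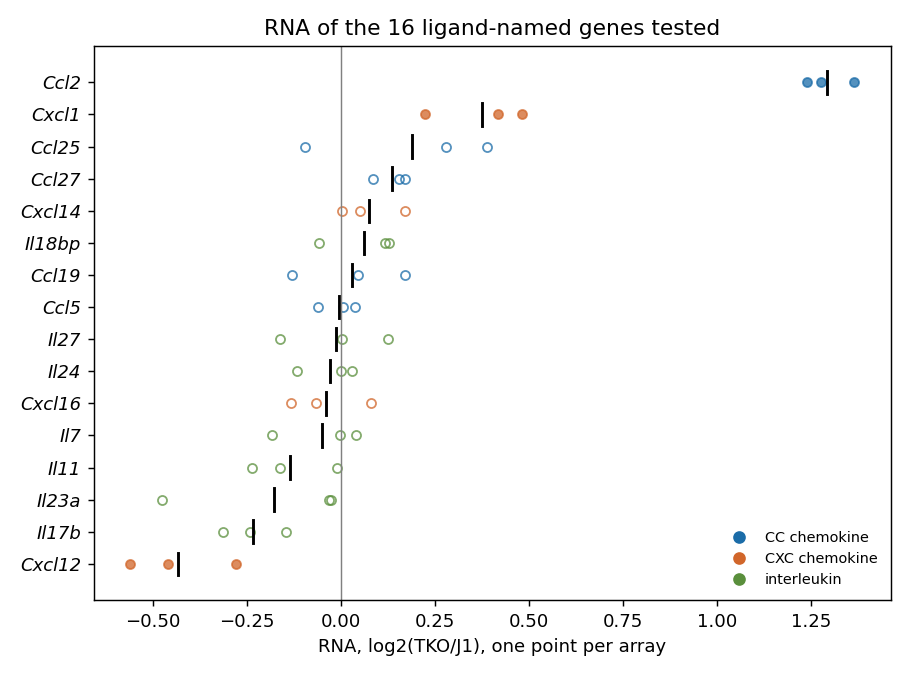
Log2(TKO/J1) of RNA for the 16 genes tested, with a point for each of 3 expression arrays and a black bar at the mean; filled points are genes past an adjusted p of 0.05. Ccl2 stands alone at 1.24 to 1.36, Cxcl1 lies above 0 and Cxcl12 below 0 on every array.

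Several genes outside the test differed in the same direction on all 3 arrays. Ccl7, a monocyte chemokine and a near neighbour of Ccl2 on chromosome 11, has a pair of probes. The first read 589, 470 and 465 in TKO, against 101, 91.4 and 134 in J1, and was well above background in TKO on 2 arrays and in J1 on none, so J1 has only a bound. On that probe Ccl7 was at least 1.52-fold higher in TKO, the mean normalised TKO signal over the lowest J1 signal that counts as above background. The second probe read 476, 303 and 550 in TKO, against 187, 115 and 294 in J1, where it was above background on 1 array. TKO was above J1 on all arrays for both probes. The lines did not overlap on either, though at the second probe 303 in TKO lay close to 294 in J1. On replicate 3 neither line was well above background at either probe.

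Il17d, an Il17 family member made by non-immune cells, read 1554, 1244 and 700 in TKO, against 768, 646 and 398 in J1. Its log2 ratio was 0.58 ± 0.11 (SD, n = 3), and each line was above background on 2 arrays. Cxcl10, a chemokine induced by interferon, read 621, 674 and 653 in TKO, against 477, 352 and 367 in J1, with a log2 ratio of 0.28 ± 0.09. Without the filter on dim probes, Ccl7 (0.43, adjusted p = 0.014), Il17d (0.58, adjusted p = 0.0072) and Cxcl10 (0.28, adjusted p = 0.028) passed as higher in limma. In that fit 8.24% of 27694 genes were higher and 7.34% lower, and 5 and 2 of the 72 genes were.

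**Figure D2:**
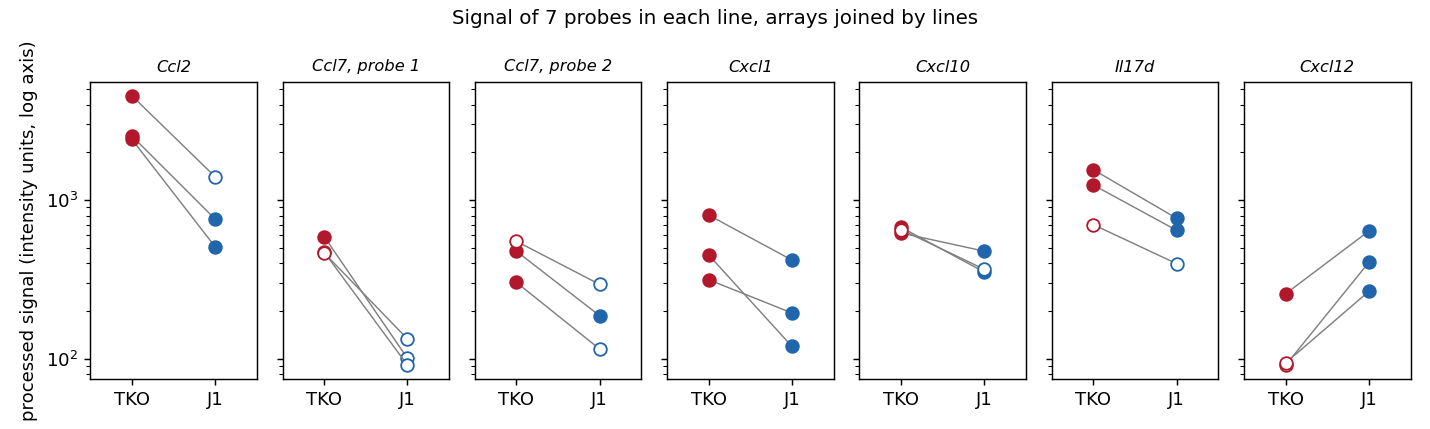
Processed signal (intensity units, log axis) of 7 probes in TKO and J1, with a line joining the values of an array; filled points were well above background and open points were not. Ccl2, Ccl7, Cxcl1, Cxcl10 and Il17d lie higher in TKO on each array, and Cxcl12 lies lower.

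The remaining genes that were above background on 1 or 2 arrays of a line were Ccl3, Ccl9, Ccl17, Ccl20, Ccl28, Cxcl4, Cxcl7, Cxcl11, Il2, Il12b, Il13, Il16, Il17e, Il17f, Il18, Il1f8, Il28 and Il4i1. None of these 18 passed the adjusted p without the filter. The interferon-induced chemokine Cxcl11 came nearest, at -0.17 with an adjusted p of 0.073 in limma, a sign opposite to that of Cxcl10, which shares its receptor Cxcr3.

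The scale of these ratios depends on how background was treated. With the scanner's processed signals in place of normexp correction, which adds a constant to each signal, the log2 ratio was 1.89 for Ccl2, 1.18 for Cxcl1 and -1.65 for Cxcl12, and Il17b (-0.75) and Il23a (-0.42) also passed as lower. With median centring Ccl2 was called (1.13), and Cxcl1 (0.29, adjusted p = 0.50) and Cxcl12 (-0.50, adjusted p = 0.14) were not. Without replicate 2 Cxcl1 was at 0.32 (adjusted p = 0.078), and without replicate 1 Ccl25 passed at 0.33 (adjusted p = 0.047).

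The genes on which these ligands act, or which act on them, were counted in lists. Of 164 such genes on the array 69 were tested, of which 17 rose (24.6%, against 16.9% of all tested genes), 14 fell (20.3%, against 15.8%) and the rest were not called. With median centring 4 were called higher and 5 lower, where 378 and 738 of all 12000 tested genes were. Without replicate 1 the lower count was 6, where 1130 of all 12000 were lower. Among ligands outside the name rule 4 of 10 rose (40.0%) and 3 fell (30.0%). The membrane-bound chemokine Cx3cl1 was at 0.87 ± 0.10 (SD, n = 2) and the matrix cytokine Spp1 at 0.73 ± 0.09 (n = 2). Ebi3, the partner subunit of Il27, fell by 0.82 ± 0.08 (n = 3), while Il27 was at -0.01, and the macrophage migration factor Mif fell by 0.41 ± 0.14.

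Among the receptors 19 of 75 were tested, of which 5 rose (26.3%, against 16.9% of all tested genes) and 2 fell (10.5%, against 15.8%). Csf1r, the receptor of the macrophage growth factor, was at 1.08 ± 0.19, Il17rc, a subunit of the receptor for Il17 and Il17f, at 0.93 ± 0.19, Il12rb1, shared by the receptors of Il12 and Il23, at 0.70 ± 0.19 and Crlf2, a subunit of the Tslp receptor, at 0.51 ± 0.03 (SD, n = 3 each). Ccr2, the receptor of Ccl2 and Ccl7, was below background on every array in both lines. The median log2 ratio was -0.01 over the tested receptors.

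In the list of NF-kB and innate signalling genes 3 of 21 rose and 3 fell (14.3% each, against 16.9% and 15.8% of all tested genes). Cebpb, a transcription factor of cytokine genes, was at 0.93 ± 0.14 and the adaptor Myd88 at 0.36 ± 0.03, while the kinase Chuk fell by 0.45 ± 0.04 (n = 2) and Irf3, a factor of the interferon response, fell by 0.33 ± 0.15. In the JAK-STAT list 3 of 14 rose (21.4%) and 5 fell (35.7%). Stat4, which carries the Il12 signal, fell by 1.14 ± 0.12, the phosphatase Ptpn6 by 0.49 ± 0.14 and Socs2, a feedback inhibitor, by 0.36 ± 0.17, while the kinase Jak1 was at 0.66 ± 0.07 (n = 2). Of 5 tested processing genes 2 rose, Casp8 at 0.42 ± 0.16 and the protease Mmp9 at 0.40 ± 0.13. The inflammasome adaptor Pycard fell by 0.66 ± 0.24. The median over all 69 genes was -0.02.

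Markers of other cell types were read beside Ccl2, Cxcl1 and Ccl7 and against the same 16.9% and 15.8% of all tested genes, since fewer cells of a type and less RNA per cell cannot be told apart in these bulk samples. All 11 tested primitive endoderm markers rose (median 1.38), and their summed signal was 110508 to 143425 in TKO, against 47506 to 58898 in J1. Of 11 trophoblast markers on the array 5 were tested and 4 rose (median 1.81), the keratins Krt8, Krt18 and Krt7 and the prolactin family gene Prl3d1. The transcription factor Tfap2c was not called (-0.15 ± 0.07, n = 2). The summed signal of the trophoblast markers was 338803 to 576871 in TKO, against 81604 to 116640 in J1. Of 16 fibroblast and feeder markers on the array 6 were tested and 4 rose (median 0.74). The summed signal of this list was 53809 to 67290 in TKO, against 42896 to 60449 in J1. Lum, Fap and Twist2 were below background in both lines, and the remaining ones were neither tested nor below background on every array. Of 8 tested ES markers 1 rose and 4 fell.

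Leukocyte markers gave 1 higher (Csf1r) and 2 lower (Cd68 and Laptm5) of 5 tested, with a summed signal of 8914 to 14273 in TKO, against 10300 to 16239 in J1. Of 19 leukocyte markers on the array 7 were below background on every array: Ptprc, Adgre1, Fcgr1, Tyrobp, S100a8, S100a9 and Ncr1. The remaining leukocyte markers were neither tested nor below background on every array. None of the 4 tested endothelial markers was called. The part of primitive endoderm, trophoblast or fibroblast RNA in the ligand results was not tested.

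The promoter arrays covered many of the genes whose RNA could not be read. Of the 268 promoter probes 261 lay in 50 tested regions of 49 genes, a region being at least 3 probes of one annotated transcript with no gap over 2000 bp. The promoters of 4 genes are shown to compare their CG content: Cxcl12 and Cxcl1, with the largest RNA changes among the called genes that have an entry, and Il17f and Ccl25, near the ends of the promoter ratios. They run from 250 bases before the annotated start to 50 after it (RefSeq, GRCm38.p6, first listed start), with each CG, the dinucleotide that the missing enzymes methylate, in capitals. They lie at chr6:117168285-117168584 (plus strand), chr5:90890995-90891294 (plus), chr1:20784221-20784520 (minus) and chr8:4324960-4325259 (plus).
Cxcl12: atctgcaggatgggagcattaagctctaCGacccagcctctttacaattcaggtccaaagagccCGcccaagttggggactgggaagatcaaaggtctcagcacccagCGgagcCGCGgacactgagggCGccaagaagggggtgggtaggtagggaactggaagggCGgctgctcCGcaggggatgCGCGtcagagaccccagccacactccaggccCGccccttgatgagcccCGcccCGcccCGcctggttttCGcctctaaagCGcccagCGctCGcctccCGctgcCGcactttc
Cxcl1: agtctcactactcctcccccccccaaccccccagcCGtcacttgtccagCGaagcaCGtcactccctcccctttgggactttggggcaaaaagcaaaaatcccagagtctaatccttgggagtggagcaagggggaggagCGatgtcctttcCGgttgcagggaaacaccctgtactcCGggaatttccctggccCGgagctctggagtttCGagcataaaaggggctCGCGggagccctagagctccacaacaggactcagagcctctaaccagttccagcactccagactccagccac
Il17f: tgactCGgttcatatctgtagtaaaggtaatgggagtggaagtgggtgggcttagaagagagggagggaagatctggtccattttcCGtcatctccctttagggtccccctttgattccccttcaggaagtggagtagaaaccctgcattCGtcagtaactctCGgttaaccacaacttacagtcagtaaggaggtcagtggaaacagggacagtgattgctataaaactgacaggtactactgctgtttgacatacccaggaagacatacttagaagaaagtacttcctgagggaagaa
Ccl25: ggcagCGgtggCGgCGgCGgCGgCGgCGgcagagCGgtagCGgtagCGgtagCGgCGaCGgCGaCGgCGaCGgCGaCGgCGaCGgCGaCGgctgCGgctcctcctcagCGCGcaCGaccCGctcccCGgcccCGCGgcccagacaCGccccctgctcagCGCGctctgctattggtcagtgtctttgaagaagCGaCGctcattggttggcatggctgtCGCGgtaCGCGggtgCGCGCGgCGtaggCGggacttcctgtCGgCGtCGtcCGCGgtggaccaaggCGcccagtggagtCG
The 4 stretches differ in CG number: 20 for Cxcl12, 10 for Cxcl1, 4 for Il17f and 52 for Ccl25. Of the 72 genes 53 had a RefSeq promoter, with a median of 3 CG per 300 bases, against 7 over 27025 genes. The TATA form TATAAA on the coding strand was in 15 of the 53, Il17f and Il17 among them, and in 8.88% of all promoters. A match is a description of letters and not a binding site.

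Promoters of the chemokine and interleukin genes leaned towards the channel labelled TKO. Of 50 regions 40 had a mean log2(labelled TKO / labelled J1) above 0, with a median of 0.16, against 0.00 over all 14474 regions. At an adjusted p of 0.05 and any size, 33 regions (66%) leaned to the channel labelled TKO and 4 (8%) to that labelled J1, against 31.1% and 25.8% of all regions. All 7 arrays were above 0 at 30 regions (60%), against 23.7% of all regions, and below 0 at 3 (6%), against 19.8%. The median SD over arrays was 0.12.

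With a size of at least 0.5 as well, 5 regions (10%) were called, all on the labelled TKO side, against 2.6% of all regions. None was called on the labelled J1 side, where 0.0691% of all regions were. The highest was Il17f at 0.72 ± 0.37 (SD, n = 7), with a lowest, median and highest array of 0.30, 0.90 and 1.14. Il17, which lies beside it on chromosome 1 and encodes the founding member of the family, was at 0.62 ± 0.18, with arrays from 0.40 to 0.97 around a median of 0.58. Both are T cell cytokines that act on epithelia, and both regions were above 0 on every array.

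Il20, an Il10 family cytokine of skin, was at 0.59 ± 0.21, with arrays from 0.37 to 0.92 around 0.46. Il21, a cytokine of helper T cells, was at 0.54 ± 0.21, with arrays from 0.36 to 0.96 around 0.45. Ccl2 was at 0.54 ± 0.14, with arrays from 0.31 to 0.68 around 0.53. Adjusted p-values of these 5 regions in limma were between 1.4e-05 (Ccl2) and 0.00031 (Il17f).

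Just short of the size lay Ccl7, the neighbour of Ccl2, at 0.50 ± 0.13, and Cxcl4, the platelet chemokine, at 0.49 ± 0.17, both above 0 on all 7 arrays. Ccl3, an inflammatory macrophage chemokine, was at 0.42 ± 0.15, Il1b at 0.39 ± 0.18 and Il10, an anti-inflammatory cytokine, at 0.39 ± 0.13. The Il1 family genes Il1f5 and Il1f6 stood at 0.39 ± 0.15 and 0.39 ± 0.12. With only probes well above background in both channels, Il1f5 was at 0.06 and Il1f6 at 0.33. At -1274 and -1018 bp the probes of Il1f5 read 1.06 and 1.03. Their spots were well above background in 28.6% and 42.9% of arrays in the channel labelled J1. The probes of Il1b lay 300 to 2132 bp after the annotated start, so they do not cover its promoter.

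The strength of the calls differed with the signal behind them. With normexp correction none of the 50 regions was called with the size, and over all regions 15 and 1 were. Il17 (0.40), Il20 (0.37), Ccl2 (0.37) and Il21 (0.16) then still passed the adjusted p at a smaller size, while Il17f (0.10, adjusted p = 0.073) and Ccl7 (0.08, adjusted p = 0.63) did not. With probes well above background in both channels, Il17, Il20 and Ccl2 were called with Ccl7 (0.54), Il17f was at 0.22 and Il21 had too few probes.

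Single probes show where along the promoters the ratios lay. At Il17f the ratio was 1.52 and 1.40 at -856 and -580 bp from the start and 0.11 to 0.31 at the 3 probes nearer to or after it. The spots of those 2 upstream probes were well above background in 57.1% and 28.6% of arrays in the channel labelled J1. At Il17 the ratio was lowest at -947 bp (0.13) and highest at 169 bp (1.12), and at Il20 it was highest at -856 bp (1.03) and lowest at -29 bp (0.26). The probes of Ccl2 all lay upstream of the start. Its ratio was 0.20 at -2499 bp, 0.29 at -1420 bp, 0.68 at -1142 bp and 0.94 at -861 bp, all spots being well above background.

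**Figure D3:**
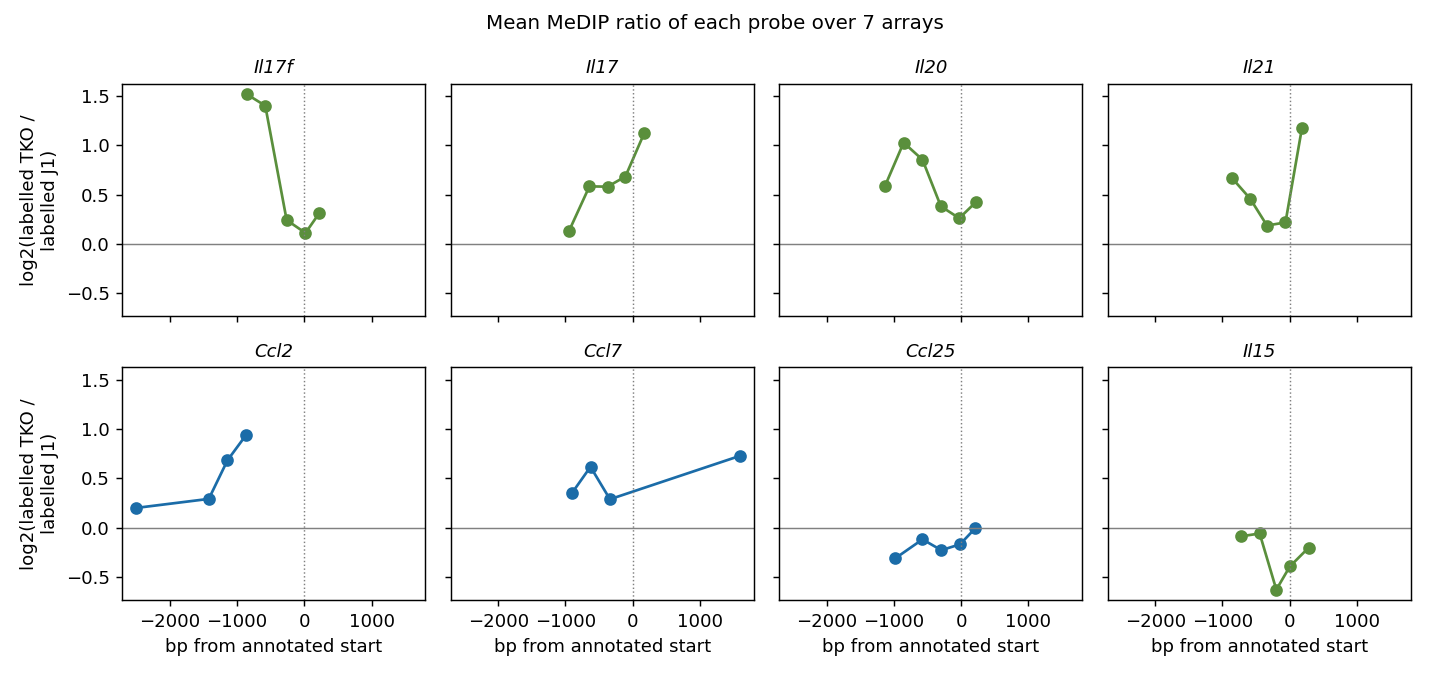
Mean log2(labelled TKO / labelled J1) over 7 arrays for each probe of 8 regions, against its distance from the annotated start in bp. Every probe of Il17f, Il17, Il20, Il21, Ccl2 and Ccl7 lies above 0 and every probe of Ccl25 and Il15 below 0, and the Ccl2 probes all lie upstream.

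At the other end, Il15, a growth factor of natural killer cells, was at -0.28 ± 0.06 (SD, n = 7), with arrays from -0.35 to -0.20 around -0.29 and a limma adjusted p of 4.3e-05. Ccl25 was at -0.17 ± 0.03, with arrays from -0.21 to -0.12, and Cxcl1 at -0.13 ± 0.10, with arrays from -0.27 to -0.03. All 7 arrays were below 0 for these 3. Il4i1 was at -0.11 ± 0.10, Cxcl16 at -0.05 ± 0.05 and Il17d at -0.04 ± 0.10, each with 1 array above 0.

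Il15 and Ccl25 both lie on chromosome 8, where the median region was at -0.13 on part 1 and -0.09 on part 2, against 0.01 on each part for the other chromosomes. The other 3 regions on chromosome 8, Il17c (0.22 ± 0.10), Ccl17 (0.12 ± 0.05) and Ccl22 (0.06 ± 0.09), lay above 0. Without chromosome 8 the count at any size was 31 of 45 regions towards labelled TKO and 2 towards labelled J1, with a median of 0.20. Over all regions, chromosome 8 included, the shares at any size were 31.1% and 25.8%.

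**Figure D4:**
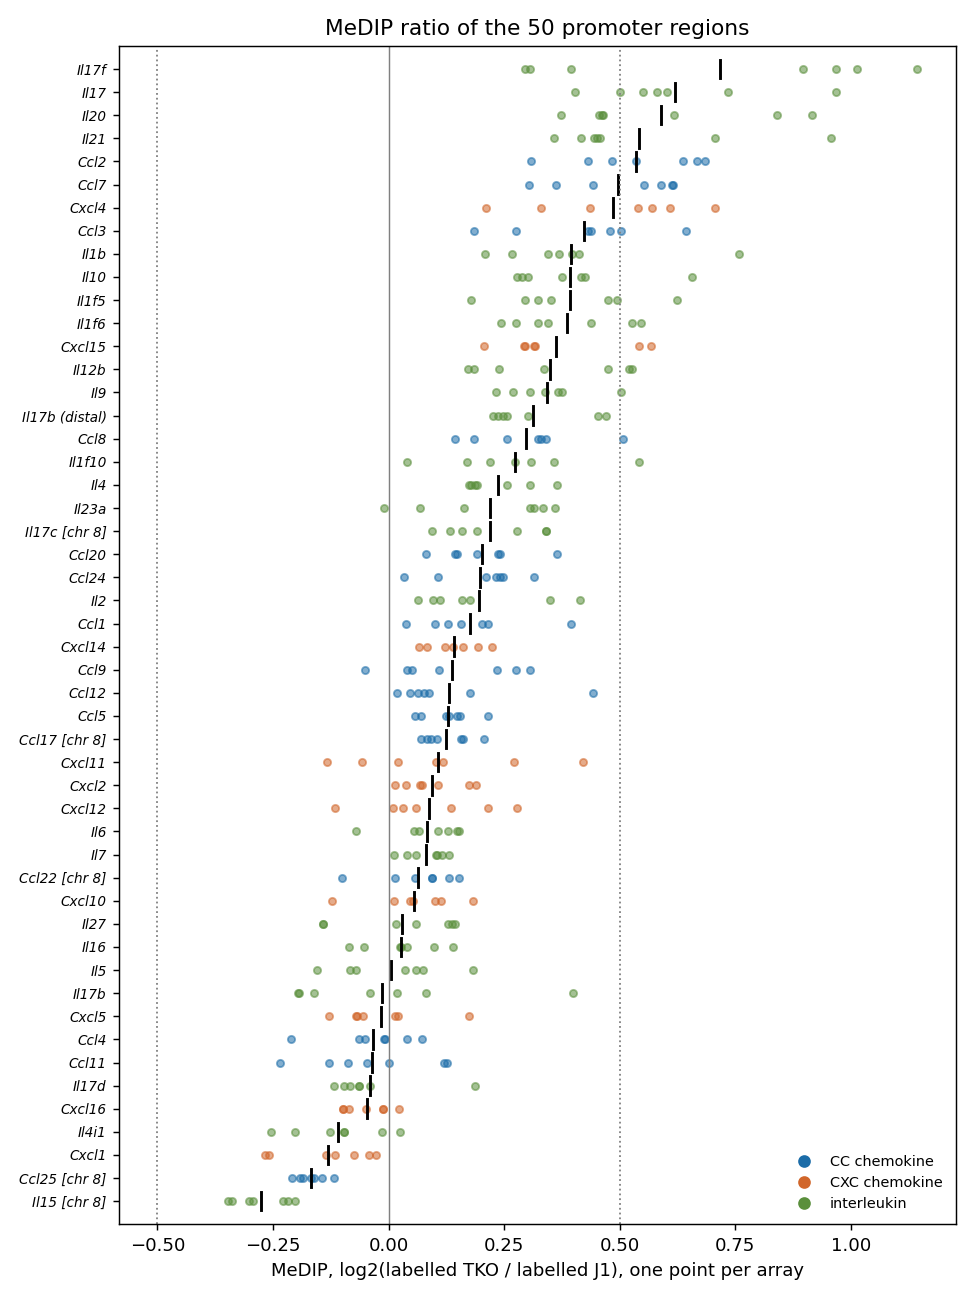
Log2(labelled TKO / labelled J1) of the MeDIP signal at 50 regions, sorted by mean, with a point for each of 7 arrays, a black bar at the mean and dotted lines at 0.5 from 0. Most points lie above 0, Il17f has the widest spread, and Il15 and Ccl25, the lowest, are on chromosome 8.

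By family, interleukin-named genes had the highest median, 0.24 over 25 regions, of which 18 leaned to labelled TKO and 2 to labelled J1 at any size. The 15 CC chemokine regions had a median of 0.14, with 11 and 1, and the 10 CXC chemokine regions a median of 0.09, with 4 and 1. Over all 14474 regions 31.1% leaned to labelled TKO and 25.8% to labelled J1 at any size. The differences between families, or from all regions, were not tested.

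Genes that lie within 1 Mb of each other often differed. The CC cluster of chromosome 11 that holds Ccl2, Ccl7, Ccl1, Ccl8, Ccl11 and Ccl12 ran from 0.54 at Ccl2 to -0.04 at Ccl11, an eosinophil chemokine, with a median of 0.24. In the next cluster of that chromosome Ccl3 was at 0.42 and Ccl4, a close relative, at -0.03 ± 0.09. The CXC cluster of chromosome 5 ran from 0.49 at Cxcl4 to -0.13 at Cxcl1. Of its 5 genes 3 were called towards labelled TKO and 1 towards labelled J1 at any size, against 31.1% and 25.8% of all regions. With all probes, less spread was seen at Il17 and Il17f (0.62 and 0.72), at Il10 and Il20 (0.39 and 0.59) and over Il1f5, Il1f6 and Il1f10 (0.27 to 0.39). With only probes well above background in both channels, Il10 and Il20 kept these values. Il17 and Il17f then lay further apart, at 0.63 and 0.22, as did Il1f5, Il1f6 and Il1f10, at 0.06, 0.33 and 0.46.

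Over all regions, those with few CG in the 300-base promoter lay higher on the labelled TKO side. Over these genes the classes with up to 8 CG lay above those with more, which held few regions. Of 11181 regions with a RefSeq promoter, those with 0 to 3 CG had a median of 0.15 and those with 16 to 60 CG a median of -0.05. The 33 regions of chemokine and interleukin genes with a promoter had a median of 3 CG, against 17 over all such regions. With 0 to 3 CG, 17 of these regions had a median of 0.24, and with 4 to 8 CG, 9 had a median of 0.35, against 0.10 over all 1602 regions of that class. The 3 regions with 9 to 15 CG had a median of 0.06, and the 4 with 16 to 60 CG (Ccl25, Cxcl12, Cxcl14 and Il17d) a median of 0.02. Across regions Spearman's rho between CG number and ratio was -0.37 over all and -0.33 over these 33, a description in which regions share arrays and base composition.

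RNA and promoter values could be set side by side for 11 genes. Ccl2 was high in both, at 1.29 for RNA and 0.54 towards the labelled TKO channel at its upstream probes. Cxcl1, whose RNA rose by 0.38, had a promoter ratio of -0.13, and Cxcl12, whose RNA fell by 0.43, had 0.09 ± 0.13, with 6 of 7 arrays above 0. Ccl25 was at 0.19 for RNA and -0.17 at its promoter. Il17b had -0.23 for RNA, -0.01 ± 0.21 at its start and 0.31 ± 0.10 at a second region between -35064 and -34514 bp from it. Il23a had -0.18 for RNA and 0.22 ± 0.15 at its promoter.

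The mean promoter ratios of Cxcl14 (0.14 ± 0.06), Ccl5 (0.13 ± 0.05) and Il7 (0.08 ± 0.04) were above 0 on all 7 arrays. Their adjusted p-values were 0.0023, 0.0036 and 0.026 in limma, while their RNA lay within 0.1 of 0 on the log2 scale. Single probes differed in sign within each region. They ran from -0.30 (255 bp) to 0.70 (-809 bp) at Cxcl14, -0.29 (-1112 bp) to 0.55 (772 bp) at Ccl5 and -0.13 (-217 bp) to 0.31 (-492 bp) at Il7. With normexp correction Ccl5 was at 0.02 (limma adjusted p = 0.73). Il27 was at 0.03 ± 0.13 at its promoter. Of the 5 regions called with size, Il17, Il20 and Il21 belong to genes whose RNA was below background in both lines, and Il17f was above background on 1 array in each line.

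**Figure D5:**
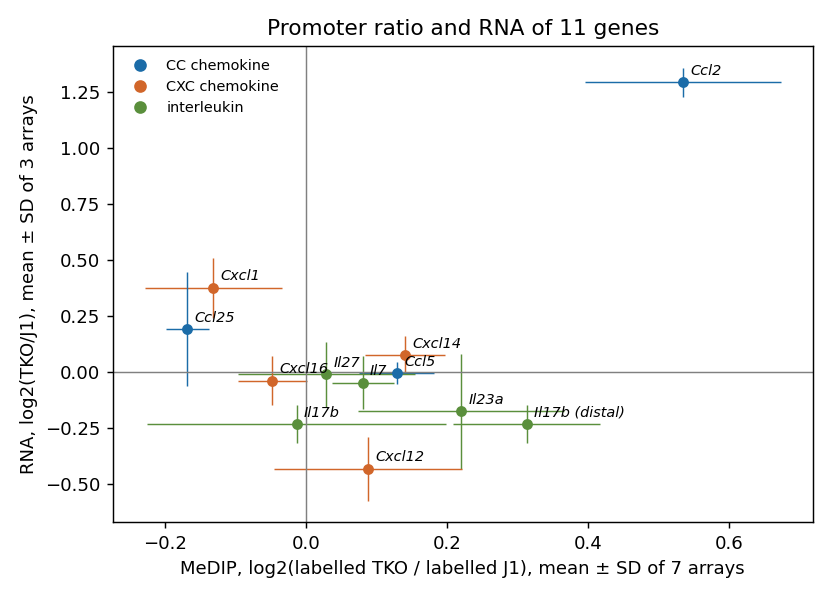
Mean RNA log2(TKO/J1) of 3 arrays (vertical) against mean MeDIP log2(labelled TKO / labelled J1) of 7 arrays (horizontal) for 11 genes, with bars of 1 SD; Il17b has a point for each of its regions. Ccl2 lies apart at the upper right, Cxcl1 at the upper left and Cxcl12 at the bottom.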

How the data were processed

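Members and gene lists were chosen with earlier results of these data known. Per the file headers, Agilent Feature Extraction 8.5.1.1 made the MeDIP files and expression replicate 1, and another release made expression replicates 2 and 3. The submitters' processing notes name 8.5. The deposited intensity values were background-subtracted and dye-normalised, linearly for MeDIP and linearly with LOWESS for expression, per the file headers. The authors' deposited tables hold log10 ratios. For MeDIP these are red over green as the scanner gave them, within 0.005, and for expression the mean of 3 arrays with the swap turned, which followed the ratios here at r = 0.92 across 12000 genes. Deposited column medians were -0.0102 to 0 for MeDIP and -0.0158 for expression, and no source used here states how they were centred.

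RNA ratios used limma 3.58.1 (R 4.3.3): normexp with an offset of 50, loess, control spots and uneven spots left out, spots of a probe averaged, and 1 probe a gene, the brightest. The offset shrinks the ratios of dim probes. MeDIP ratios were log2 of the processed signals, centred on each array's median without loess and averaged over a region, with parts fitted apart and p-values adjusted over both. Ratios were tested against 0.

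By rule the text names members tested for RNA or partly detected, regions called with size, the 6 highest and 6 lowest regions, regions of genes tested for RNA and up to 4 called genes a list. Members named beside a family, gene cluster or chromosome were added after their values were seen. Accessions named 22072 of 41174 expression probes (RefSeq, GRCm38.p6). The sources used here state no build for probe positions, so distances alone are printed.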

Additional observations from a re-analysis of the deposited data

Results flagged for a closer look

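At 4 of the 50 regions 1 MeDIP array stood far from the other 6 by Dixon's test, which chance alone does for about 1 in 20 groups. At Il1b it was replicate 6 of part 1, at 0.76 beside a mean of 0.39 over 7 arrays, and at Il10 replicate 2 of part 1, at 0.66 beside a mean of 0.39. At Ccl12 replicate 2 of part 2 read 0.44 beside a mean of 0.13, and at Il17d replicate 2 of part 2 read 0.19 beside a mean of -0.04, the other 6 arrays being below 0.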

How the results depend on the processing

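Ccl2 was called higher under every RNA alternative that was tested and without any single array. With median centring 1 of the tested genes was higher (Ccl2) and 0 lower, while the median of all genes shifted by -0.097. Without the filter on dim probes 5 were higher and 2 lower. Il17b made 2 lower with the mean over probes, and Il17b and Il23a made 3 lower with processed signals. Without replicate 2 Cxcl1 lost its call, and without replicate 1 Ccl25 gained one, so leaving out an array gave 1 to 3 higher. The authors' deposited table gave log2 ratios of 1.90 for Ccl2, 1.19 for Cxcl1 and -1.62 for Cxcl12. Genes near 0 changed sign: with median centring Ccl25 (-0.0019), Cxcl14 (-0.10), Il18bp (-0.026) and Ccl19 (-0.089), and with the mean over probes Cxcl16 (0.12). Leaving out an array, Ccl19 ran from -0.042 to 0.11, Ccl5 from -0.028 to 0.022, Il27 from -0.080 to 0.064, Il24 from -0.058 to 0.015, Cxcl16 from -0.10 to 0.0072 and Il7 from -0.093 to 0.019.

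Of the other pathway genes, 4 were higher and 5 lower with median centring, 9 were lower with a dye term, and 6 to 12 were lower on leaving out an array. Over all 12000 tested genes 378 were higher and 738 lower with median centring. With a dye term 1423 of them were lower, and on leaving out an array 1115 to 1644. For the promoters, normexp correction left 0 regions called with size and 20 towards labelled TKO at any size, and the median over probes left 3 with size. Leaving out an array gave 4 to 7 with size. Over all 14474 regions the counts with size towards labelled TKO were 15 with normexp, 291 with the median over probes and 319 to 450 on leaving out an array, against 377 in the main fit. The any-size count with normexp has no share over all regions beside it. Near 0, Cxcl12 changed sign with normexp (-0.00042) and when dim probes were dropped (-0.030), Il27 with the median over probes (-0.038), Cxcl16 with normexp (0.023), and the Il17b start region with normexp (0.020), mode centring (0.026), loess (0.039) and left-out arrays (-0.082 to 0.017). The cause was not tested. A slide block on part 2 left Ccl2 called at 0.54. It could not be estimated for part 1, which holds the other 4 regions called with size, or for expression, where 3 arrays lay on 2 slides, so it was not run there.

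The lines were paired within each array, which holds both and gives 1 ratio, tested against 0. Arrays of part 1 and part 2 share replicate numbers but were not paired with each other. No paired analysis was possible because the parts are different array designs, were fitted apart, and no test compares them. Signal limits the RNA results: 47 of 90 probes were below background on every array in both lines.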
